A study of Mus musculus with 34 samples.

Results

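Pancreatic islets from RIP-DTR HTZ mice were compared 30 days and 5 days after ablation with diphtheria toxin (DT), by bulk RNA sequencing of 8 of the 34 deposited samples. The samples were chosen by title: 4 libraries are titled DT 30 DPA and 4 are titled DT 5 DPA, where DPA is taken here as days post ablation. Every one of the 8 carries the RIP-DTR HTZ genotype and the DT treatment, so the groups differ, by their labels, in time alone. The labels give no age, sex or diet for these mice, and do not say that replicates came from separate animals. The p-values thus measure only a spread between libraries, estimated in one fit of the 33 libraries of the 9 labelled groups. The series followed mice after partial beta cell loss caused by DT or by streptozotocin. Untreated islets of the same genotype (CTRL, 3 libraries) and DT islets on SD at 10 weeks after ablation (DT SD 10WPA, 4 libraries) are used below for levels only.

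The rat insulin promoter (RIP) of the transgene drives a receptor for diphtheria toxin in cells that make insulin, and the toxin stops protein synthesis and kills the cells that take it up. Dying islet cells are cleared by macrophages, and the beta cells that remain can enlarge their hormone output or enter the cell cycle. An islet also holds alpha cells, which make glucagon, delta cells, which make somatostatin, endothelium, nerve endings and resident immune cells, all of which contribute RNA to a bulk library.

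Library totals ran from 12066780 to 15742834 counts over the 8 libraries, and levels are given as CPM, counts scaled per library to a common total. Ins1 and Ins2 together took 19.9%, 13.5%, 16.6% and 26.3% of all counts in the 30 DPA libraries, against 3.56%, 9.04%, 11.9% and 10.3% in the 5 DPA libraries, so the islet label was borne out by insulin in every library. Acinar enzymes and factors took 3.64%, 1.62%, 9.8% and 6.56% at 30 DPA and 1.45%, 1.84%, 9.25% and 2.68% at 5 DPA, and none of the 25 acinar genes passed the edgeR test (1 at an unadjusted p below 0.05, and 1 called by DESeq2). RNA of enterocytes was present in part of the libraries: the 12 enterocyte markers summed to 4038 CPM in 30 DPA replicate 2, against 141 to 166 CPM in the other 30 DPA libraries, and to 2946, 5084 and 1810 CPM in 5 DPA replicates 1, 2 and 4, against 132 CPM in replicate 3. None of these 12 markers passed the edgeR test between the groups, at an unadjusted p below 0.05 or by DESeq2. In a bulk library, fewer cells of a type and less RNA per cell cannot be told apart.

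Of 17616 genes tested with edgeR, 5371 (30.5%) had an adjusted p below 0.05. Higher levels at 30 DPA were called for 2914 genes (16.5% of those tested) and lower levels for 2457 (13.9%). The largest changes were falls: 538 of the called genes were more than 4-fold lower at 30 DPA, against 213 that were more than 4-fold higher. The median log2 fold change of all genes tested was 0.02. In a fit of the 8 compared libraries alone, 2266 genes were called higher and 2867 lower. Without 5 DPA replicate 1 the count of called genes was 3525, and without the 8 libraries of the series with over 500 CPM of enterocyte markers (the libraries with enterocyte RNA, below), which leaves 30 DPA replicates 1, 3 and 4 and a single 5 DPA library assumed to vary like the other groups, it was 912 (117 higher, 795 lower). The first principal component of the 8 libraries held 46.13% of their variance and placed the 30 DPA libraries between -93.28 and -42.15 and the 5 DPA libraries between 2.02 and 100.33.

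**Figure D1:**
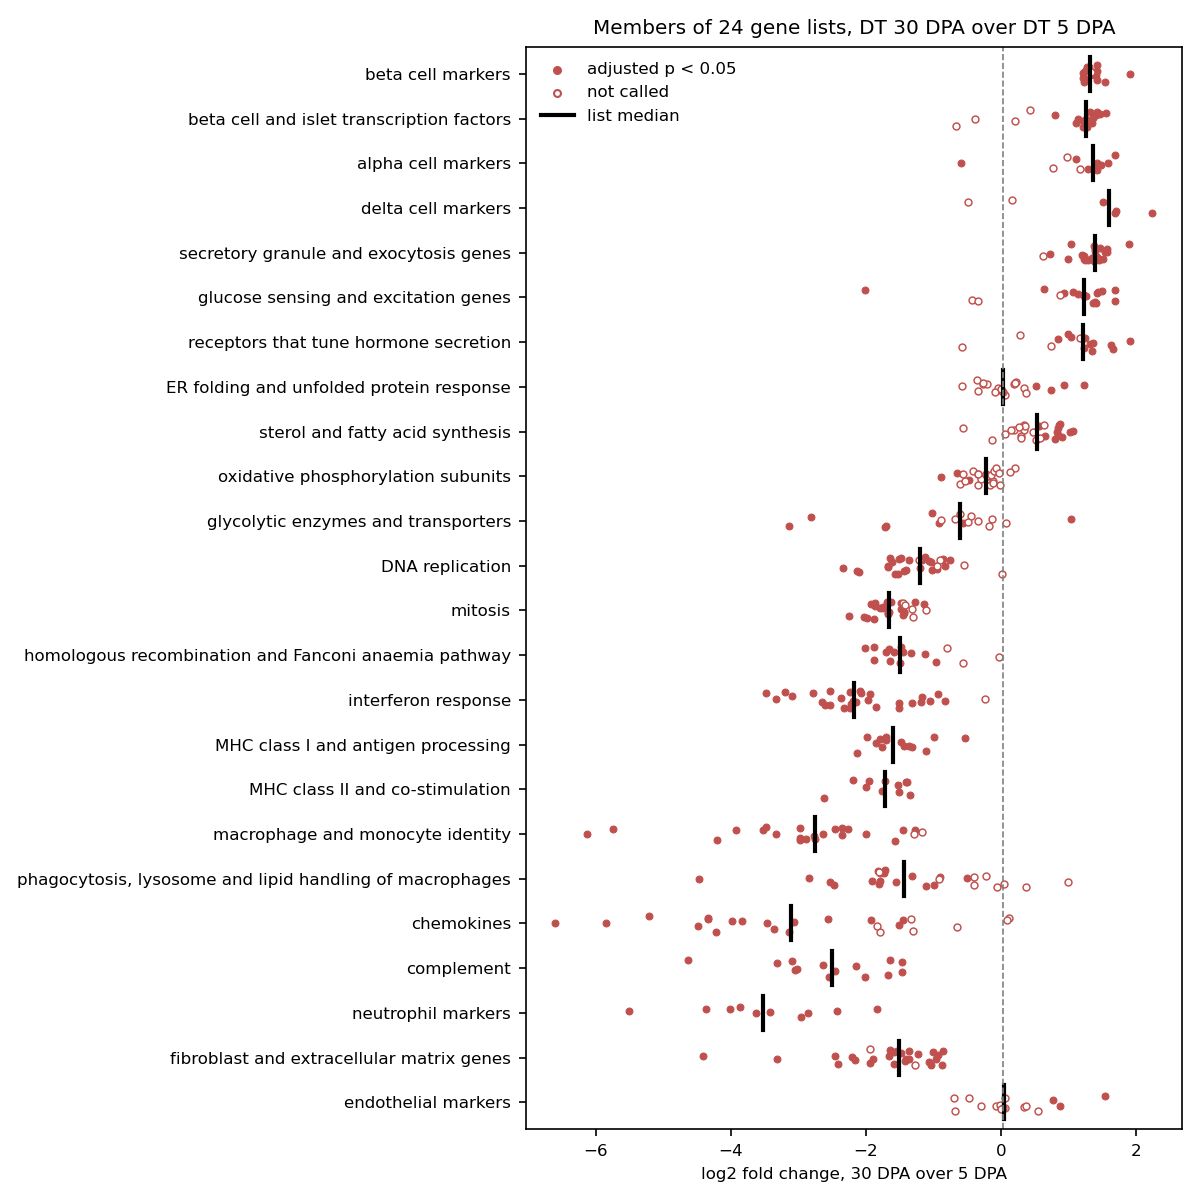
Log2 fold change (30 DPA over 5 DPA, edgeR) of the members of 24 gene lists. Each point is a gene, filled where its adjusted p is below 0.05 and open otherwise, and each black bar is the list's median; the dashed line is the median of all genes tested (0.02). Endocrine and granule lists lie to the right of 0, and interferon, macrophage, matrix and cell cycle lists to the left.

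Genes of the beta cell were higher at 30 DPA. Of 18 beta cell markers, 17 were called higher and none lower, with a median log2 fold change of 1.32 against 0.02 over all genes tested, and 15 of the 18 had all 4 libraries at 30 DPA above all 4 at 5 DPA (16.8% of all genes tested did). Ins1, one of the pair of mouse insulin genes, had 57760, 34980, 50110 and 78970 CPM at 30 DPA, against 9639, 22110, 32920 and 25150 CPM at 5 DPA. The groups did not overlap for Ins1, and the rise was 2.47-fold (log2 fold change 1.30 ± 0.48, edgeR adjusted p = 0.0422). Log2 fold changes are of 30 DPA over 5 DPA and are given ± SE throughout. When each of the 8 libraries was left out in turn, Ins1 lost its call in 6 of the 8 fits, with an edgeR adjusted p of up to 0.142. Ins2, the other insulin gene, had 134300, 83820, 127300 and 211700 CPM at 30 DPA, against 20350, 54890, 82740 and 63590 CPM at 5 DPA. Its groups did not overlap either, but it missed the threshold (log2 fold change 1.33 ± 0.52, edgeR adjusted p = 0.0523). The lowest insulin values of all belonged to 5 DPA replicate 1.

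The marker with the smallest adjusted p was Glp1r, the receptor for the incretin GLP-1, with 74.1, 52.1, 92.7 and 135 CPM at 30 DPA, against 8.53, 27.6, 30.3 and 27.7 CPM at 5 DPA. Each 30 DPA value was above the highest 5 DPA value, and the rise was 3.77-fold (log2 fold change 1.91 ± 0.42, edgeR adjusted p = 0.00169). Slc30a8, which loads zinc into insulin granules, rose 2.92-fold (log2 fold change 1.54 ± 0.34, edgeR adjusted p = 0.00172), with 310.0 to 566 CPM at 30 DPA and 73 to 198 CPM at 5 DPA. Iapp, the amyloid peptide released together with insulin, rose 2.64-fold (log2 fold change 1.40 ± 0.39, edgeR adjusted p = 0.009). Slc2a2, the glucose transporter of the mouse beta cell, had 358, 247, 392 and 729 CPM at 30 DPA, against 76.2, 250.2, 192 and 203 CPM at 5 DPA. Replicate 2 at 30 DPA lay within the range of the 5 DPA libraries for Slc2a2, which still passed the test (log2 fold change 1.26 ± 0.40, edgeR adjusted p = 0.0196).

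Transcription factors of the islet moved in the same direction, with 16 of 20 called higher and a median log2 fold change of 1.26. Isl1 (log2 fold change 1.55 ± 0.34, edgeR adjusted p = 0.00161) and Pax6 (log2 fold change 1.47 ± 0.32, edgeR adjusted p = 0.00169), which all islet endocrine cells use, had the smallest adjusted p, followed by Glis3 (log2 fold change 1.35 ± 0.32, edgeR adjusted p = 0.00282), a regulator of insulin transcription, and Foxa2 (log2 fold change 1.41 ± 0.33, edgeR adjusted p = 0.00285). Mafa, which marks mature beta cells, had 116, 99.2, 126 and 201 CPM at 30 DPA, against 24.2, 66.4, 69.2 and 75.3 CPM at 5 DPA. No 30 DPA library was as low as any 5 DPA library for Mafa (log2 fold change 1.20 ± 0.41, edgeR adjusted p = 0.0268), and the same held for Pdx1 (log2 fold change 1.20 ± 0.36, edgeR adjusted p = 0.0127) and Nkx6-1 (log2 fold change 1.41 ± 0.41, edgeR adjusted p = 0.0122). When the libraries with enterocyte RNA were left out, 2 of the 18 beta cell markers and 1 of the 20 factors were called higher, with medians of 1.00 and 0.90. Without 5 DPA replicate 1, 9 beta cell markers and 10 factors were called higher, and Mafa, Pdx1, Nkx6-1 and Slc2a2 were not (Mafa 0.95 and Slc2a2 1.01 on the log2 scale). Mafa, Pdx1 and Slc2a2 also lost their calls without 30 DPA replicate 4 (0.95, 0.94 and 0.88).

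The other endocrine cells showed a like rise. Among 12 alpha cell markers 8 were called higher and 1 lower (median 1.35). Gcg, which encodes glucagon, had 29980, 31430, 40900 and 31610 CPM at 30 DPA, against 12410, 12940, 15280 and 9352 CPM at 5 DPA. The groups did not overlap, and Gcg rose 2.68-fold (log2 fold change 1.42 ± 0.37, edgeR adjusted p = 0.00562). Ttr (log2 fold change 1.58 ± 0.34, edgeR adjusted p = 0.00153), Peg3 (log2 fold change 1.68 ± 0.41, edgeR adjusted p = 0.00389) and the alpha cell factor Irx2 (log2 fold change 1.42 ± 0.36, edgeR adjusted p = 0.00425) rose as well. Delta cell markers were called higher for 4 of 6 genes (median 1.60), among them Sst, somatostatin (log2 fold change 2.23 ± 0.70, edgeR adjusted p = 0.0171), Casr, the calcium-sensing receptor (log2 fold change 1.70 ± 0.43, edgeR adjusted p = 0.00468), Rbp4 (log2 fold change 1.51 ± 0.47, edgeR adjusted p = 0.0183) and Ghsr, the ghrelin receptor (log2 fold change 1.69 ± 0.62, edgeR adjusted p = 0.0407). Ghsr lost its call in 5 of the 8 fits that left out a library, Rbp4 in 2 and Sst in 1, the last without 5 DPA replicate 4 (1.93). No alpha or delta cell marker was called by edgeR without the libraries with enterocyte RNA, where 5 and 2 had an unadjusted p below 0.05 and the medians were 1.03 and 1.29.

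Pancreatic polypeptide was uneven among libraries. Ppy had 1279, 3277, 3192 and 458 CPM at 30 DPA, against 1208, 13.3, 9.78 and 5.6 CPM at 5 DPA. A single 5 DPA library lay within the 30 DPA range and the other 3 had at most 13.3 CPM, and Ppy did not pass the test (log2 fold change 2.73 ± 1.56, edgeR adjusted p = 0.19). Of the 11 islet peptides and neuropeptides tested, Ppy included, Pyy (log2 fold change 2.14 ± 0.82, edgeR adjusted p = 0.0483) and Npy (log2 fold change 1.98 ± 0.65, edgeR adjusted p = 0.0242) were called, both higher. They made up 18.2% of the list, against 16.5% of all genes tested called higher. Npy, which sympathetic nerves also make, had 34.5, 494, 27.1 and 114 CPM in the 30 DPA libraries, with its highest value in replicate 2. Without that library Npy had a log2 fold change of 0.46 and was not called, and Pyy lost its call in 6 of the 8 fits that left out a library.

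**Figure D2:**
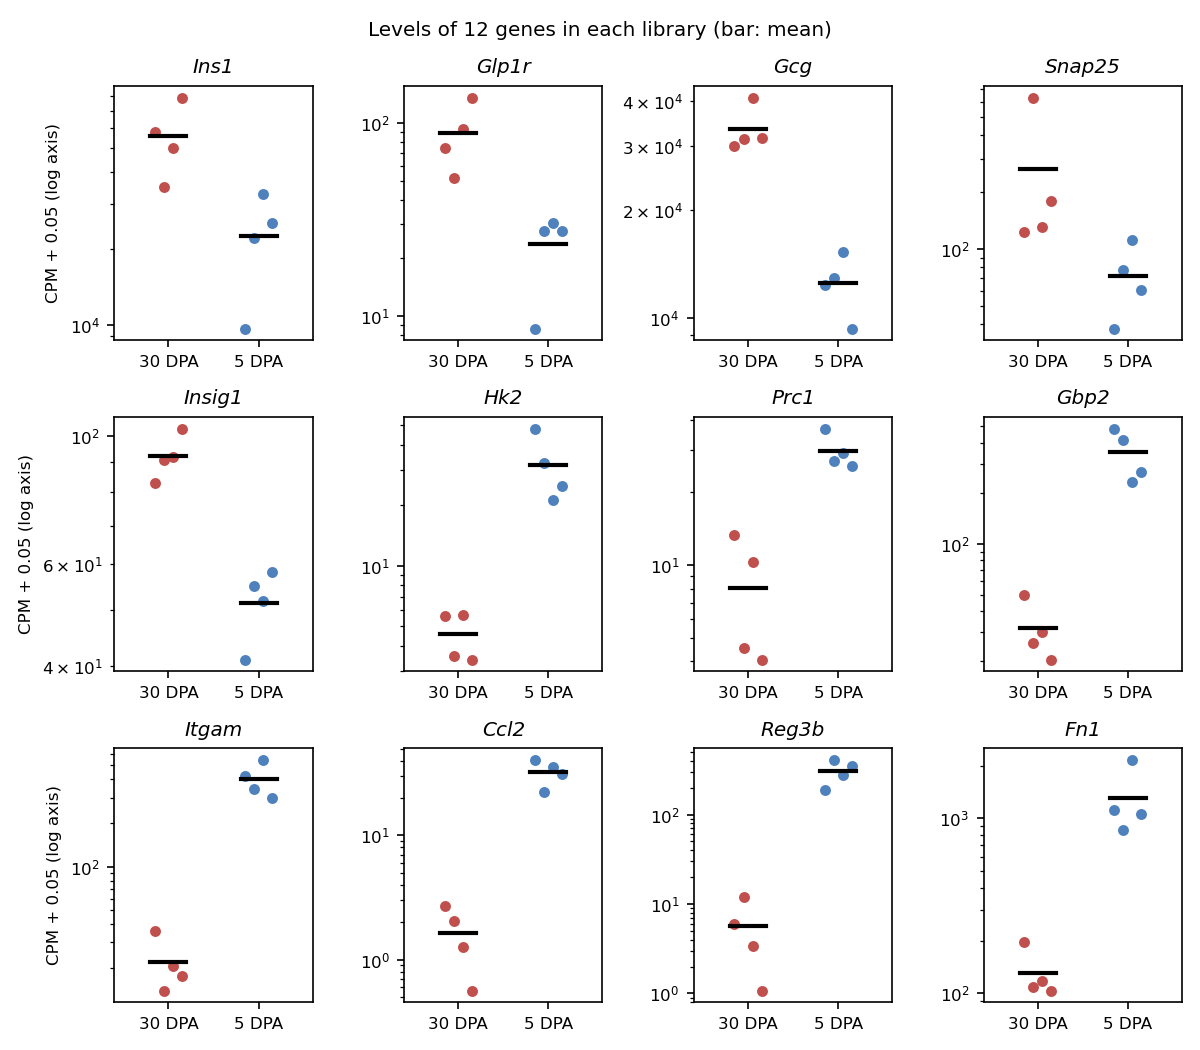
CPM of 12 genes in each library on a log axis (0.05 CPM added so that 0 can be drawn), 4 libraries at 30 DPA on the left of each panel and 4 at 5 DPA on the right; points are libraries and bars are group means. Ins1, Glp1r, Gcg, Snap25 and Insig1 are higher at 30 DPA in every library, and Prc1, Gbp2, Itgam, Ccl2, Reg3b, Fn1 and Hk2 are lower in every library.

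The machinery that releases hormone was also higher at 30 DPA. All but 1 of 25 secretory granule and exocytosis genes were called higher (24 of 25, median 1.38), and the same number had groups that did not overlap. Rab3a, a small GTPase of the granule surface, had 68.4, 116, 61.4 and 92.6 CPM at 30 DPA, against 19, 29.9, 41.7 and 28.9 CPM at 5 DPA (log2 fold change 1.50 ± 0.31, edgeR adjusted p = 0.000952). Syt7, a calcium sensor for exocytosis, had 152, 147, 139 and 171 CPM at 30 DPA, against 37.8, 55.5, 78.3 and 57.8 CPM at 5 DPA (log2 fold change 1.41 ± 0.29, edgeR adjusted p = 0.00105). Vamp2 (log2 fold change 0.99 ± 0.21, edgeR adjusted p = 0.00106), a granule SNARE protein, and Ptprn2 (log2 fold change 1.54 ± 0.33, edgeR adjusted p = 0.00137), a granule membrane protein, followed. The prohormone convertases Pcsk1 and Pcsk2, which cut proinsulin and proglucagon, rose 2.44-fold and 2.61-fold, and Chga, a core granule protein, rose 2.74-fold (log2 fold change 1.45 ± 0.37, edgeR adjusted p = 0.00485). Vgf did not pass (log2 fold change 0.62 ± 0.46, edgeR adjusted p = 0.327). Neurons use several of these genes: Snap25 had 123, 631, 131 and 180.1 CPM in the 30 DPA libraries, with its highest value in replicate 2, which also held RNA of sympathetic neurons. Without replicate 2 at 30 DPA the list had 24 calls and a median of 1.31. With the libraries with enterocyte RNA left out, the list had no call by edgeR (11 at an unadjusted p below 0.05) and a median of 0.89.

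Excitability genes rose with them. Of 19 genes for glucose sensing and excitation, 15 were called higher and 1 lower (median 1.23). Abcc8 (log2 fold change 1.41 ± 0.34, edgeR adjusted p = 0.00307) and Kcnj11 (log2 fold change 1.23 ± 0.31, edgeR adjusted p = 0.00451), the subunits of the channel that closes when glucose is metabolised, both rose. So did Cacnb2, a calcium channel subunit (log2 fold change 1.44 ± 0.30, edgeR adjusted p = 0.00122), and Atp2a3, a calcium pump of the endoplasmic reticulum (log2 fold change 0.93 ± 0.17, edgeR adjusted p = 0.000283). Tmem37, a calcium channel subunit, was the one that fell, with 1.03, 1.92, 1.9 and 1.46 CPM at 30 DPA, against 6.23, 8.19, 5.6 and 5.54 CPM at 5 DPA (log2 fold change -2.02 ± 0.68, edgeR adjusted p = 0.0271), although it lost the call in 4 of the 8 fits that left out a library. Among 16 receptors that tune secretion 12 were called higher and none lower (median 1.22), led by Gpr119, a lipid receptor (log2 fold change 1.63 ± 0.36, edgeR adjusted p = 0.00162), Gabbr2, a GABA receptor subunit (log2 fold change 1.66 ± 0.44, edgeR adjusted p = 0.00614), and Chrm3, the muscarinic receptor of the beta cell (log2 fold change 1.31 ± 0.37, edgeR adjusted p = 0.00911). Leaving out the libraries with enterocyte RNA gave 1 excitation gene higher, and 1 receptor higher and 1 lower (median 0.50).

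Prlr, the prolactin receptor through which pregnancy drives beta cell growth in mice, had 410.4, 312, 360.4 and 324 CPM at 30 DPA, against 128, 144, 139 and 136 CPM at 5 DPA. The groups stood clear of each other (log2 fold change 1.36 ± 0.40, edgeR adjusted p = 0.013), and the untreated CTRL islets had 113, 56.9 and 209 CPM. Ccnd2, the D-type cyclin on which mouse beta cell expansion depends, had 562, 492, 546 and 582 CPM at 30 DPA, against 271, 283, 298 and 277 CPM at 5 DPA (log2 fold change 0.95 ± 0.20, edgeR adjusted p = 0.00119). Of the 25 G1 cyclins, CDK inhibitors and E2F regulators it was the one called higher.

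Genes of protein folding in the endoplasmic reticulum moved little as a list. Of 21 folding and unfolded protein response genes 4 (19%) were called higher, against 16.5% of all genes tested, and none lower, with a median of 0.03. Dnajb9, a co-chaperone induced by IRE1, had 256, 225, 203 and 259.7 CPM at 30 DPA, against 127, 100.5, 137 and 128 CPM at 5 DPA (log2 fold change 0.94 ± 0.24, edgeR adjusted p = 0.00548). No 30 DPA value fell within the 5 DPA range for Dnajb9. Ero1lb, the beta cell oxidase for disulphide bonds (log2 fold change 1.23 ± 0.33, edgeR adjusted p = 0.00624), Hyou1 (log2 fold change 0.73 ± 0.20, edgeR adjusted p = 0.00883) and Dnajc3 (log2 fold change 0.52 ± 0.15, edgeR adjusted p = 0.012; not called without 30 DPA replicate 1, 0.40) were the other calls, whereas Hspa5, the main chaperone BiP, had 873 to 1097 CPM at 30 DPA and 743 to 945 CPM at 5 DPA (log2 fold change 0.20 ± 0.16, edgeR adjusted p = 0.357). In the translocon and early secretory pathway 9 of 32 genes were called higher and none lower (median 0.27), with Spcs2, a signal peptidase subunit (log2 fold change 0.46 ± 0.12, edgeR adjusted p = 0.00425), and the COPII coat gene Sec23b (log2 fold change 0.58 ± 0.15, edgeR adjusted p = 0.00588) at the front. Without the libraries with enterocyte RNA edgeR called no gene of either list, with 5 folding and 7 translocon genes at an unadjusted p below 0.05.

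Of 17 genes of the ATF4 and integrated stress response, Vldlr was called higher, and Cebpb and Gdf15 lower, with a median of 0.00. The shares called, 5.9% higher and 11.8% lower, were below those of all genes tested (16.5% and 13.9%). Cebpb, a transcription factor of macrophages, acute-phase responses and stressed beta cells, had 17.9, 11.1, 15.4 and 15.7 CPM at 30 DPA, against 162, 117, 136 and 95.2 CPM at 5 DPA. The 30 DPA values were close together and far under every 5 DPA value. Cebpb fell 8.5-fold and had the smallest adjusted p of all genes tested (log2 fold change -3.09 ± 0.20, edgeR adjusted p = 1.76e-10). Gdf15, a secreted stress hormone, fell 6.33-fold (log2 fold change -2.66 ± 0.66, edgeR adjusted p = 0.00389).

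Sterol synthesis genes were called higher at 30 DPA for 11 of 26 genes and lower for none, with a median of 0.54. Insig1, the sterol sensor that holds SREBP in check, had 83, 90.8, 91.7 and 103 CPM at 30 DPA, against 41, 55.1, 51.8 and 58.1 CPM at 5 DPA (log2 fold change 0.84 ± 0.16, edgeR adjusted p = 0.000538). Every 30 DPA library was above every 5 DPA library. Lss (log2 fold change 0.83 ± 0.17, edgeR adjusted p = 0.000768), Msmo1 (log2 fold change 0.87 ± 0.18, edgeR adjusted p = 0.00111) and Sqle (log2 fold change 1.07 ± 0.23, edgeR adjusted p = 0.00147) rose too. Without 30 DPA replicate 2 the list had 8 genes higher, 1 lower and a median of 0.24, and without the libraries with enterocyte RNA 2 genes were higher.

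Glycolysis moved the opposite way. Of 17 glycolytic enzymes and transporters 7 were called lower and 1 higher, with a median of -0.61. Hk2, the hexokinase that mature beta cells keep low, had 5.55, 3.51, 5.62 and 3.35 CPM at 30 DPA, against 48, 32.3, 21.2 and 25 CPM at 5 DPA. Every 30 DPA value was under every 5 DPA value, a 7.01-fold difference (log2 fold change -2.81 ± 0.44, edgeR adjusted p = 4.53e-05). Slc16a3, a lactate exporter, fell 8.87-fold (log2 fold change -3.15 ± 0.79, edgeR adjusted p = 0.00451), and Pfkfb3, which makes an activator of phosphofructokinase, fell 3.3-fold (log2 fold change -1.72 ± 0.31, edgeR adjusted p = 0.000289). Ldha, lactate dehydrogenase, had 76.1, 197, 76.3 and 53.8 CPM at 30 DPA, against 409, 439, 203 and 259 CPM at 5 DPA (log2 fold change -1.70 ± 0.55, edgeR adjusted p = 0.0216). Its 30 DPA replicate 2 stood above the other 3, and without that library 15 of the 17 genes were called lower (median -0.93). Ldha lost its call in 5 of the 8 fits that left out a library. Pfkm, the muscle-type phosphofructokinase that beta cells use, was the one that rose (log2 fold change 1.04 ± 0.28, edgeR adjusted p = 0.00762).

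Mitochondrial genes changed in few members. Of 24 oxidative phosphorylation subunits 3 (12.5%) were called lower, against 13.9% of all genes tested, and none higher, with a median of -0.22. The 3 were Cox5a (-0.90), Cox5b (-0.48) and Atp5o (-0.66 on the log2 scale). Pcx, pyruvate carboxylase, rose (log2 fold change 1.03 ± 0.29, edgeR adjusted p = 0.0102) and Idh3b fell (log2 fold change -0.37 ± 0.12, edgeR adjusted p = 0.0275) among 20 genes of the TCA cycle and pyruvate entry (5% called in each direction). Cpt1a, the gate of mitochondrial fatty acid oxidation, fell (log2 fold change -0.68 ± 0.22, edgeR adjusted p = 0.0197) as the sole call among 15 oxidation genes (6.7%). Of these, Pcx alone was called in all 8 fits that left out a library, and with the enterocyte-bearing libraries left out edgeR called no gene of the 3 lists (1, 1 and 3 at an unadjusted p below 0.05). Of 17 dedifferentiation and disallowed genes, which mature beta cells silence, 9 were called lower and none higher (median -1.14), or 6 lower without the libraries with enterocyte RNA. Those with the smallest adjusted p, Pdgfra (log2 fold change -1.90 ± 0.30, edgeR adjusted p = 6.38e-05), Maf (log2 fold change -1.75 ± 0.35, edgeR adjusted p = 0.000698), Igfbp4 (log2 fold change -1.30 ± 0.26, edgeR adjusted p = 0.000779) and Smad3 (log2 fold change -0.98 ± 0.20, edgeR adjusted p = 0.000937), are also expressed by fibroblasts or macrophages. Aldh1a3, a mark of failing beta cells in mice, had 1.56 to 5.43 CPM at 30 DPA and 4.53 to 10.2 CPM at 5 DPA and did not pass (log2 fold change -1.14 ± 0.69, edgeR adjusted p = 0.217).

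Cell cycle genes were lower at 30 DPA. All 28 mitosis genes had each 30 DPA library below each 5 DPA library (16.5% of all genes tested did), and 23 were called lower, with a median log2 fold change of -1.67. Prc1, which bundles the central spindle, had 13.2, 4.47, 10.2 and 4 CPM at 30 DPA, against 36.7, 27, 29 and 25.6 CPM at 5 DPA. The 30 DPA libraries split into replicates 1 and 3, with higher values, and replicates 2 and 4, with lower ones, all under the 5 DPA range (log2 fold change -1.89 ± 0.47, edgeR adjusted p = 0.00389). Plk1, the polo-like kinase that drives mitotic entry, fell 4.1-fold (log2 fold change -2.04 ± 0.55, edgeR adjusted p = 0.00747). Cdk1, the mitotic kinase, had 7.03, 2.11, 7.17 and 3.86 CPM at 30 DPA, against 24, 21.4, 13.3 and 17.8 CPM at 5 DPA (log2 fold change -1.92 ± 0.55, edgeR adjusted p = 0.0104). Top2a, which untangles chromosomes, had 46.5, 11.6, 40.3 and 16 CPM at 30 DPA, against 111, 88.5, 76.6 and 83.6 CPM at 5 DPA (log2 fold change -1.65 ± 0.55, edgeR adjusted p = 0.0256), and lost its call in 3 of the 8 fits that left out a library. Mki67, a protein of dividing cells, had 60.3, 15.5, 38.9 and 17.6 CPM at 30 DPA, against 116, 69.3, 70.7 and 107 CPM at 5 DPA and missed the threshold although its groups did not overlap (log2 fold change -1.46 ± 0.56, edgeR adjusted p = 0.0511).

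DNA synthesis followed the same order. Of 30 replication genes 25 were called lower and none higher (median -1.21). Tk1, thymidine kinase, had 7.03, 4.03, 5.69 and 3.93 CPM at 30 DPA, against 22.6, 23.9, 19.9 and 22.6 CPM at 5 DPA (log2 fold change -2.10 ± 0.35, edgeR adjusted p = 9.58e-05). The 5 DPA libraries lay within a narrow band for Tk1. Tyms, thymidylate synthase (log2 fold change -1.41 ± 0.28, edgeR adjusted p = 0.000678), Mcm7, a subunit of the replicative helicase (log2 fold change -1.20 ± 0.26, edgeR adjusted p = 0.00156), and Chaf1b, a chromatin assembly factor (log2 fold change -1.62 ± 0.37, edgeR adjusted p = 0.00224), fell as well. Homologous recombination and Fanconi anaemia genes were lower for 13 of 16 (median -1.49), with Chek1 (log2 fold change -1.45 ± 0.35, edgeR adjusted p = 0.00309), Palb2 (log2 fold change -1.48 ± 0.39, edgeR adjusted p = 0.00588), Rad54l (log2 fold change -1.64 ± 0.43, edgeR adjusted p = 0.00598) and Exo1 (log2 fold change -1.88 ± 0.51, edgeR adjusted p = 0.00719) at the front. Without 30 DPA replicate 2, 12 mitosis, 20 replication and 7 recombination genes were called lower. Without 5 DPA replicate 1 the counts were 13, 20 and 7, and without 30 DPA replicate 4 they were 10, 19 and 8. Without 30 DPA replicate 2 and 5 DPA replicate 3 together they were 8, 19 and 5. Without the libraries with enterocyte RNA 1 replication gene and none of the mitosis or recombination genes was called by edgeR (7 and 2 at an unadjusted p below 0.05), with medians of -0.91, -1.07 and -1.04.

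Part of the promoters of these lists hold elements known from cell cycle genes, and 3 that hold one are shown with the element in capitals. Prc1 leads the mitosis list, Cdk1 is a mitotic kinase and Mcm7 is among the leading replication genes. The windows run from 250 bases before to 50 bases after the start in the RefSeq annotation of GRCm38.p6, on the strand of the gene: Prc1 at chr7:80294201-80294500 (plus strand) and Cdk1 at chr10:69352863-69353162 (minus strand) with the cell cycle homology region TTTGAA, and Mcm7 at chr5:138171834-138172133 (minus strand) with the E2F elements TTTGGCGC, TTTCCCGC or TTTCGCGC, each searched on both strands. RefSeq gives Mcm7 a second window, at chr5:138171217-138171516, which held no E2F element, and Prc1 a second that holds the same region.
Prc1: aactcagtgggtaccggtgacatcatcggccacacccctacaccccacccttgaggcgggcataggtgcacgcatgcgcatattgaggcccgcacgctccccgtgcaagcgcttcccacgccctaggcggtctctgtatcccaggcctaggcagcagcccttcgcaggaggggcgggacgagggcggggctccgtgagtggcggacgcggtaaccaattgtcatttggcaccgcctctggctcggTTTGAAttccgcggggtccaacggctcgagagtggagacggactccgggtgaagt
Cdk1: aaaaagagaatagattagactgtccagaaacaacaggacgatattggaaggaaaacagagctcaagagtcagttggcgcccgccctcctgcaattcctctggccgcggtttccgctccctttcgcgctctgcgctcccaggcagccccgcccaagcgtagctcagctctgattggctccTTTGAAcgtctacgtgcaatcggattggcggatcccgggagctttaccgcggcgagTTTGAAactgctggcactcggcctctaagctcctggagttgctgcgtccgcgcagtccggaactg
Mcm7: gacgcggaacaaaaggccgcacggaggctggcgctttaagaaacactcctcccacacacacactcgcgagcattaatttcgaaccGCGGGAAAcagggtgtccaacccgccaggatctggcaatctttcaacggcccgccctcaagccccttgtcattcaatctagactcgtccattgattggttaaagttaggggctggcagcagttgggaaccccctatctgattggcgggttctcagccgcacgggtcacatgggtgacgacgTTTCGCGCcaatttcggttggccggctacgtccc
The cell cycle homology region was present in a promoter of 17 of the 23 mitosis genes with a window (73.9%), against 15.0% of 12595 tested genes. The CCAAT box was present for 18 of the 23 (78.3%, against 42.1%). It was not particular to mitosis genes, as 16 of 17 folding and unfolded protein response genes held it (94.1%). An E2F element was present for 10 of 25 replication genes (40.0%), against 3.5% of tested genes. Birc5, next to Prc1 by adjusted p, held no cell cycle homology region in its window, and Tk1, which leads the replication list, held no E2F element. A match of letters is a description of the window and not evidence of a bound site.

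Regulators of the G1 phase fell more selectively, with 10 of 25 called lower (2 without the libraries with enterocyte RNA). Cdkn1a, the p53 target p21, had 17.1, 27.3, 14.2 and 14.6 CPM at 30 DPA, against 87.3, 58.3, 82.7 and 56.6 CPM at 5 DPA. No overlap was seen, and Cdkn1a fell 3.89-fold (log2 fold change -1.96 ± 0.44, edgeR adjusted p = 0.00204). Ccnd3 (log2 fold change -0.95 ± 0.20, edgeR adjusted p = 0.000896) and Cdkn2c (log2 fold change -0.84 ± 0.22, edgeR adjusted p = 0.00604) fell less far. Of 22 genes of p53 and its targets 9 (40.9%) were called lower and 2 (9.1%) higher, with a median of -0.40. The shares of all genes tested were 13.9% and 16.5%. Without the libraries with enterocyte RNA the median of the list was -0.37. Bax, which opens the mitochondrial outer membrane in apoptosis (log2 fold change -0.71 ± 0.14, edgeR adjusted p = 0.000476), and Ccng1 (log2 fold change -0.47 ± 0.10, edgeR adjusted p = 0.00192) fell, whereas Rrm2b, the p53-inducible ribonucleotide reductase subunit, rose to 48.4, 56.8, 57 and 55.5 CPM at 30 DPA, against 28.4, 26.7, 31.2 and 35 CPM at 5 DPA (log2 fold change 0.84 ± 0.10, edgeR adjusted p = 1.53e-06). The CTRL islets had 54.9, 45.3 and 48.7 CPM of Rrm2b. Zmat3 was called higher too (log2 fold change 0.68 ± 0.19, edgeR adjusted p = 0.00887), but not without 30 DPA replicate 2 (0.49).

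Among 27 growth factor and receptor genes tested 4 (14.8%) were called lower and 3 (11.1%) higher (median -0.44). Over all genes tested these shares were 13.9% and 16.5%. Pdgfra and Pdgfrb, the PDGF receptors of fibroblasts and pericytes, fell 3.73-fold and 2.06-fold, and Tgfb1, which drives matrix production, fell 2.85-fold (log2 fold change -1.51 ± 0.32, edgeR adjusted p = 0.00123). Igf1, which macrophages and stroma secrete, had 23.3 to 52.7 CPM at 30 DPA and 72.1 to 105 CPM at 5 DPA (log2 fold change -1.30 ± 0.43, edgeR adjusted p = 0.0242) and lost its call in 4 of the 8 fits that left out a library. Vegfa, the endothelial growth factor that islet cells secrete, had 229, 188, 236 and 258 CPM at 30 DPA, against 104, 98.8, 137 and 87.4 CPM at 5 DPA (log2 fold change 1.09 ± 0.31, edgeR adjusted p = 0.00909). Its 30 DPA values were all above its 5 DPA values. Igf1r, the IGF1 receptor, was called higher (log2 fold change 0.85 ± 0.24, edgeR adjusted p = 0.0105), but not without 5 DPA replicate 1 (0.67). Of the list 2 were called lower and none higher without the libraries with enterocyte RNA.

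Interferon-stimulated genes were lower at 30 DPA in 29 of 30 members, with a median log2 fold change of -2.17. Gbp3 (log2 fold change -2.79 ± 0.29, edgeR adjusted p = 3.17e-07) and Gbp2 (log2 fold change -3.48 ± 0.38, edgeR adjusted p = 4.47e-07), guanylate-binding proteins that attack intracellular pathogens, had the smallest adjusted p. Iigp1, an interferon-inducible GTPase, had 34.9, 14.9, 22.7 and 15.9 CPM at 30 DPA, against 319, 251, 117 and 205 CPM at 5 DPA. The 30 DPA values all lay under the lowest 5 DPA value (log2 fold change -3.33 ± 0.36, edgeR adjusted p = 4.47e-07). Oasl2 (log2 fold change -2.08 ± 0.27, edgeR adjusted p = 4.41e-06), Isg15, a ubiquitin-like modifier (log2 fold change -2.25 ± 0.46, edgeR adjusted p = 0.000876), and the transcription factor Irf7 (log2 fold change -2.53 ± 0.43, edgeR adjusted p = 0.000129) also fell. Cmpk2 was the member that did not pass (log2 fold change -0.24 ± 0.19, edgeR adjusted p = 0.355). Without the libraries with enterocyte RNA 20 of the 30 were called lower, with a median of -2.09.

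The promoters of Gbp2 (chr3:142620413-142620712, plus strand) and Isg15 (chr4:156200769-156201068, minus strand) are shown because they hold the core of the interferon-stimulated response element, GAAANNGAA on either strand, given in capitals. Overlapping matches are joined, so the single run in Isg15 holds 3 of them.
Gbp2: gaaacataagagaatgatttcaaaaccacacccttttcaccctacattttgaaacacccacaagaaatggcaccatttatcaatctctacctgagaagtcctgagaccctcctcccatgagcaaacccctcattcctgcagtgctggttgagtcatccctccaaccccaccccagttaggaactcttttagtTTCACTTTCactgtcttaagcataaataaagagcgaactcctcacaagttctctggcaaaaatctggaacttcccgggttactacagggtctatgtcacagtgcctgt
Isg15: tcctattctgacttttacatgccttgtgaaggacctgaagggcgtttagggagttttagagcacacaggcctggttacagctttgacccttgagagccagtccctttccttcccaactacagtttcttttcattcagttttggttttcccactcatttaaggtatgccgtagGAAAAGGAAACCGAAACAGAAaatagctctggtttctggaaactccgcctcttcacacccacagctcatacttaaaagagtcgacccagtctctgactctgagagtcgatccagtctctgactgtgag
Oasl2 held no match in its window. The core was present in a promoter of 15 of the 22 interferon genes with a window (68.2%), against 8.9% of tested genes, and in 4 of 12 class I genes (33.3%). The NF-kappaB element GGGANTTTC, on either strand, was present for 3 of 17 chemokine genes (17.6%) and 4 of 16 cytokine and feedback genes (25.0%), against 1.3% of tested genes. With the cell cycle elements these are 5 of 8 elements searched in 12 lists, and a gene counts as holding one where any of its RefSeq windows does.

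**Figure D3:**
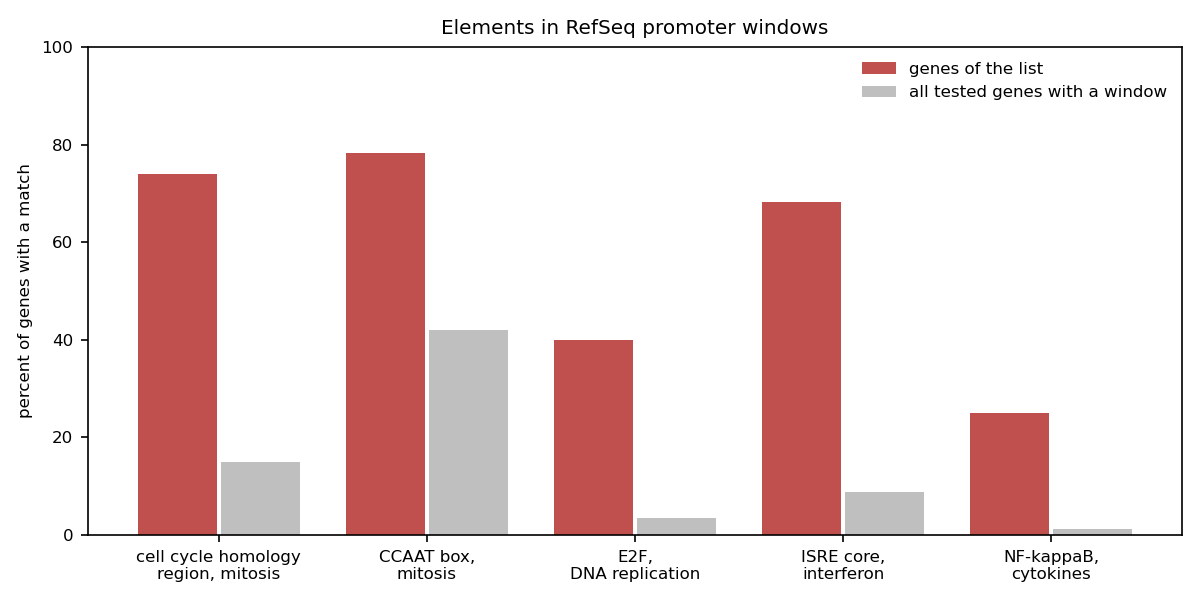
Percent of genes with at least 1 match in a promoter window, for 5 pairs of a gene list and an element (left bars) and for all 12595 tested genes with a window (right bars). The share is higher in the list than over all genes in each pair shown.

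Antigen presentation fell in full. All 14 genes of MHC class I and antigen processing were called lower (median -1.60), and all 11 of class II and co-stimulation (median -1.72), with no overlap between the groups for any of the 25. H2-D1, a class I heavy chain, had 651, 335, 429.5 and 316 CPM at 30 DPA, against 2384, 1611, 1358 and 1498 CPM at 5 DPA (log2 fold change -1.98 ± 0.31, edgeR adjusted p = 5.72e-05). Tapbp (log2 fold change -1.11 ± 0.17, edgeR adjusted p = 3.7e-05) and the immunoproteasome genes Psmb10 (log2 fold change -1.49 ± 0.26, edgeR adjusted p = 0.000208) and Psme1 (log2 fold change -1.36 ± 0.24, edgeR adjusted p = 0.000219) had small adjusted p. Ctss, the protease that frees class II from its invariant chain, had 218, 90.8, 152 and 106 CPM at 30 DPA, against 1307, 869.5, 643 and 688 CPM at 5 DPA (log2 fold change -2.63 ± 0.35, edgeR adjusted p = 5.82e-06), and H2-Ab1, a class II beta chain, fell 3.3-fold (log2 fold change -1.72 ± 0.39, edgeR adjusted p = 0.00199). Without the libraries with enterocyte RNA none of the class I genes was called by edgeR (8 at an unadjusted p below 0.05) and 1 class II gene was, with medians of -0.93 and -1.06.

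Macrophage genes were among the lowest relative to 5 DPA. Of 24 macrophage and monocyte genes 22 were called lower (median -2.76), and their summed level was 733 to 1666 CPM at 30 DPA and 6775 to 10160 CPM at 5 DPA. Fcgr1, the high-affinity IgG receptor, had 7.36, 1.98, 3.32 and 5.32 CPM at 30 DPA, against 81, 71.5, 60.3 and 59.7 CPM at 5 DPA. The groups were far apart, a 15.1-fold difference (log2 fold change -3.92 ± 0.36, edgeR adjusted p = 4.76e-08). Itgam, the CD11b integrin, had 36.1, 13.9, 20.6 and 17.6 CPM at 30 DPA, against 425, 346, 549 and 300.0 CPM at 5 DPA (log2 fold change -4.20 ± 0.41, edgeR adjusted p = 1.22e-07). Fcer1g, the signalling chain of Fc receptors, fell 7.91-fold (log2 fold change -2.98 ± 0.32, edgeR adjusted p = 3.51e-07), and Adgre1, which encodes F4/80, fell 11.5-fold (log2 fold change -3.52 ± 0.33, edgeR adjusted p = 6.12e-08). The count was 19 of 24 without the libraries with enterocyte RNA. Macrophages also make many of the interferon, antigen presentation, complement, chemokine, cytokine and cell death genes described here, and the part of the macrophage level in those falls was not tested.

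Genes of engulfment and of the lysosome followed, with 17 of 26 called lower and none higher (median -1.44). Ctsd, a lysosomal protease, had 252, 286, 185 and 191 CPM at 30 DPA, against 1018, 858, 889 and 662 CPM at 5 DPA (log2 fold change -1.91 ± 0.15, edgeR adjusted p = 4.21e-09). Msr1, a scavenger receptor, fell 22.3-fold (log2 fold change -4.48 ± 0.47, edgeR adjusted p = 3.51e-07). Ctsb, another protease of the lysosome (log2 fold change -1.72 ± 0.19, edgeR adjusted p = 4.88e-07), and Plin2, the coat of lipid droplets (log2 fold change -2.47 ± 0.31, edgeR adjusted p = 2.93e-06), fell too. Trem2, the lipid receptor of macrophages that have engulfed debris, had 2.26, 1.47, 1.49 and 3.42 CPM at 30 DPA, against 15.9, 13.9, 21.3 and 11 CPM at 5 DPA (log2 fold change -2.84 ± 0.61, edgeR adjusted p = 0.00142).

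Chemokines were called lower for 17 of 24 genes and higher for none, with a median of -3.10. Ccl2, which draws CCR2-bearing monocytes, had 2.65, 1.98, 1.22 and 0.51 CPM at 30 DPA, against 40.8, 22.4, 35.3 and 31.2 CPM at 5 DPA. Nothing at 30 DPA came near the 5 DPA range, and the fall was 20.2-fold (log2 fold change -4.34 ± 0.56, edgeR adjusted p = 3.94e-06). Ccl6 (log2 fold change -4.22 ± 0.39, edgeR adjusted p = 4.76e-08), Ccl9 (log2 fold change -3.47 ± 0.44, edgeR adjusted p = 3.96e-06) and Cxcl10, the interferon-induced ligand of CXCR3 (log2 fold change -3.84 ± 0.54, edgeR adjusted p = 1.3e-05), had small adjusted p. Cxcl1, a ligand of the neutrophil receptor CXCR2, had 0.387, 0.256, 0.406 and 0.291 CPM at 30 DPA, against 14.4, 7.7, 17.5 and 11.6 CPM at 5 DPA (log2 fold change -5.22 ± 0.81, edgeR adjusted p = 4.33e-05). Cytokines and NF-kappaB feedback genes were lower for 22 of 23 tested (median -2.12). Acod1, which makes itaconate in activated macrophages, had 1.74, 0, 0.135 and 0.0728 CPM at 30 DPA, against 75, 70.9, 43.9 and 45.2 CPM at 5 DPA (log2 fold change -6.87 ± 0.84, edgeR adjusted p = 2.35e-06). Il1a (log2 fold change -3.40 ± 0.50, edgeR adjusted p = 2.27e-05), Nos2 (log2 fold change -4.55 ± 0.70, edgeR adjusted p = 3.8e-05), whose product makes nitric oxide that harms rodent beta cells, and Il1rn, the natural blocker of the IL-1 receptor (log2 fold change -3.14 ± 0.50, edgeR adjusted p = 5.9e-05), fell. Il1b, which impairs beta cells, had 5.74, 2.04, 5.28 and 3.57 CPM at 30 DPA, against 42.4, 12.1, 28.7 and 30.3 CPM at 5 DPA (log2 fold change -2.77 ± 0.44, edgeR adjusted p = 6.03e-05), and Tnf fell 4.42-fold (log2 fold change -2.15 ± 0.56, edgeR adjusted p = 0.00533). The calls were 11 chemokines and 8 cytokine genes without the libraries with enterocyte RNA.

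All 14 complement genes were called lower (median -2.50), with no overlap for any. C3ar1, the receptor for C3a, fell 8.13-fold (log2 fold change -3.02 ± 0.32, edgeR adjusted p = 3.51e-07). C1qa, a chain of the recognition molecule C1q, had 136, 63.5, 98.5 and 97.7 CPM at 30 DPA, against 465, 451, 496 and 349 CPM at 5 DPA (log2 fold change -2.15 ± 0.24, edgeR adjusted p = 5.78e-07), and C1qb (-2.64) and C1qc (-2.55) fell by like amounts on the log2 scale. Cfb, the factor that starts the alternative pathway, had 41.1, 17.5, 26.3 and 14.3 CPM at 30 DPA, against 761, 741, 441 and 512 CPM at 5 DPA (log2 fold change -4.63 ± 0.61, edgeR adjusted p = 5.68e-06). The number of calls was 11 of 14 without the libraries with enterocyte RNA.

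Acute-phase proteins and alarmins were lower for 13 of 17 genes tested and higher for none (median -1.84). Saa3, the serum amyloid of mouse macrophages and fat, had 24.3, 1.47, 0.948 and 2.11 CPM at 30 DPA, against 2695, 2530, 3464 and 2251 CPM at 5 DPA. It fell 379-fold, the widest change among the genes named by size (log2 fold change -8.56 ± 1.07, edgeR adjusted p = 3.24e-06). Hp, haptoglobin (log2 fold change -4.60 ± 0.68, edgeR adjusted p = 2.65e-05), Lcn2, an iron-sequestering lipocalin (log2 fold change -5.82 ± 0.91, edgeR adjusted p = 5.55e-05), and Steap4 (log2 fold change -1.77 ± 0.37, edgeR adjusted p = 0.00113) fell as well. Of the 7 Reg genes, secreted lectins that pancreatic and gut epithelium induces on injury, 3 were called lower. Reg3b had 6, 11.9, 3.38 and 1.02 CPM at 30 DPA, against 190.4, 412, 279.7 and 346 CPM at 5 DPA (log2 fold change -5.78 ± 1.25, edgeR adjusted p = 0.00162). Reg3g had 0.774, 2.81, 1.29 and 0.583 CPM at 30 DPA, against 23.3, 109.8, 29.3 and 52.3 CPM at 5 DPA (log2 fold change -5.28 ± 1.08, edgeR adjusted p = 0.000975), and Reg3a fell 28.4-fold (log2 fold change -4.83 ± 1.36, edgeR adjusted p = 0.00963). Reg2 had 1.85 to 57.4 CPM at 30 DPA and 73.8 to 472 CPM at 5 DPA and did not pass (log2 fold change -3.42 ± 1.40, edgeR adjusted p = 0.0647). The acute-phase list had 4 calls and the Reg genes 2 without the libraries with enterocyte RNA. Untreated islets were uneven for Reg3b, with 3.94, 42.5 and 106 CPM.

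Cell death genes were called lower for 17 of 20 members and higher for none (median -1.44). Without 5 DPA replicate 1, 13 were called lower and 1 higher. Nlrp3, the inflammasome sensor, had 2.45, 0.894, 1.62 and 0.874 CPM at 30 DPA, against 20.9, 14.1, 13.1 and 13.7 CPM at 5 DPA (log2 fold change -3.39 ± 0.42, edgeR adjusted p = 2.84e-06). Mlkl, the executioner of necroptosis (log2 fold change -2.53 ± 0.34, edgeR adjusted p = 5.68e-06), Pycard, the inflammasome adaptor (log2 fold change -2.46 ± 0.39, edgeR adjusted p = 5.62e-05), Zbp1, a sensor of Z-form nucleic acid (log2 fold change -3.20 ± 0.56, edgeR adjusted p = 0.000207), and Casp1 (log2 fold change -2.39 ± 0.48, edgeR adjusted p = 0.00073) fell. Of the 20 genes 5 were called lower without the libraries with enterocyte RNA.

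Neutrophil markers were called lower in 10 of 10 tested genes (median -3.53), and their summed level was 12.2 to 30.7 CPM at 30 DPA and 75.5 to 271 CPM at 5 DPA. Csf3r, the G-CSF receptor, had 3.81, 2.94, 5.55 and 5.68 CPM at 30 DPA, against 71.3, 38.3, 48.7 and 35.3 CPM at 5 DPA (log2 fold change -3.43 ± 0.46, edgeR adjusted p = 6.32e-06). Mmp8 (log2 fold change -5.51 ± 1.11, edgeR adjusted p = 0.000892), Cxcr2 (log2 fold change -2.96 ± 0.70, edgeR adjusted p = 0.00278) and Mmp9 (log2 fold change -1.84 ± 0.46, edgeR adjusted p = 0.00425) were the next by adjusted p. With those libraries that hold enterocyte RNA left out, 1 of the 10 was called, with a median of -3.06. Of 18 T, B and NK cell markers 3 (16.7%) were called lower, against 13.9% of all genes tested, and none higher. They were the cytotoxic genes Gzmb (log2 fold change -3.03 ± 0.91, edgeR adjusted p = 0.0137), Gzma (log2 fold change -2.32 ± 0.70, edgeR adjusted p = 0.0146) and Nkg7 (log2 fold change -1.57 ± 0.53, edgeR adjusted p = 0.0271), all with overlapping groups, and Cd3e, of the T cell receptor complex, had 3.86 to 21 CPM at 30 DPA and 4.34 to 31.5 CPM at 5 DPA (log2 fold change -0.63 ± 0.73, edgeR adjusted p = 0.541). No lymphocyte gene was called by edgeR without the libraries with enterocyte RNA (1 at an unadjusted p below 0.05), where the list median was 1.45 and not -0.54. Leaving out 5 DPA replicate 1 ended all 3 calls (Gzmb -2.53, Gzma -1.92 and Nkg7 -1.15).

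Matrix genes fell at 30 DPA in 26 of 28 members (median -1.52), with 26 non-overlapping. Timp1, an inhibitor of matrix metalloproteinases, had 0.516, 1.73, 1.22 and 0.728 CPM at 30 DPA, against 33.6, 17.7, 11.8 and 27.1 CPM at 5 DPA. It fell 21.3-fold (log2 fold change -4.41 ± 0.51, edgeR adjusted p = 8.58e-07). Fn1, fibronectin, had 197, 108, 117 and 103 CPM at 30 DPA, against 1119, 861, 2168 and 1062 CPM at 5 DPA (log2 fold change -3.31 ± 0.45, edgeR adjusted p = 8.53e-06). The fibrillar collagens Col3a1 (log2 fold change -2.20 ± 0.27, edgeR adjusted p = 1.78e-06), Col1a2 (log2 fold change -1.94 ± 0.26, edgeR adjusted p = 5.86e-06) and Col1a1 (log2 fold change -2.17 ± 0.29, edgeR adjusted p = 6.22e-06) fell by similar amounts, and Lox, which cross-links them, fell 5.49-fold (log2 fold change -2.46 ± 0.38, edgeR adjusted p = 4.44e-05). The list had 22 calls without the libraries with enterocyte RNA. Of 11 smooth muscle and pericyte markers 2 (18.2%, against 13.9% of all genes tested) were called lower, Des (log2 fold change -1.01 ± 0.30, edgeR adjusted p = 0.0124) and Actg2 (log2 fold change -1.89 ± 0.67, edgeR adjusted p = 0.0327). Neither was called without 30 DPA replicate 2 (-0.82 and -1.73). Actg2 lost its call in 3 of the 8 fits that left out a library, with log2 fold changes from -2.26 to -0.75. It had 15.6 CPM in 5 DPA replicate 2, against 0.789 to 4.53 CPM in the other 5 DPA libraries.

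Of 16 endothelial markers 3 (18.8%) were called higher, against 16.5% of all genes tested, and none lower, with a median of 0.04. Esm1, a target of VEGF in endothelial cells, had 70.1, 51, 90.9 and 115 CPM at 30 DPA, against 19.9, 33.5, 31.1 and 28.5 CPM at 5 DPA (log2 fold change 1.53 ± 0.32, edgeR adjusted p = 0.00123). Emcn (log2 fold change 0.87 ± 0.22, edgeR adjusted p = 0.00485) and Kdr, the main VEGF receptor (log2 fold change 0.77 ± 0.23, edgeR adjusted p = 0.0115), were the others, and all 3 had groups that did not overlap. Eng had 58.3 to 79.7 CPM at 30 DPA and 83.2 to 107 CPM at 5 DPA and did not pass (log2 fold change -0.48 ± 0.19, edgeR adjusted p = 0.0566). DESeq2 called 3 of the 16 higher and 1 lower, and without the libraries with enterocyte RNA edgeR called none (1 at an unadjusted p below 0.05).

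Genes of the mesothelium, the lining of the peritoneum, were lower for 5 of 8 and higher for 1 (median -2.36). Prg4, a lubricating proteoglycan that peritoneal cells express, had 7.42, 2.36, 2.64 and 0.728 CPM at 30 DPA, against 222, 76.6, 466 and 116 CPM at 5 DPA (log2 fold change -6.05 ± 0.66, edgeR adjusted p = 5.22e-07). Upk1b (log2 fold change -3.10 ± 0.99, edgeR adjusted p = 0.0198) and Upk3b (log2 fold change -1.93 ± 0.60, edgeR adjusted p = 0.0174) fell, both at low levels, whereas Msln, mesothelin, rose (log2 fold change 1.73 ± 0.54, edgeR adjusted p = 0.0166). Without 30 DPA replicate 4 the log2 fold change of Msln was 0.93 and it was not called. Msln and Upk1b each lost the call in 2 of the 8 fits that left out a library, and Upk3b in 3. The mesothelial list had 2 calls, both lower, without the libraries with enterocyte RNA. Among the 12 largest falls of all genes were also F10, coagulation factor X, with 1.68, 0.383, 1.15 and 0.583 CPM at 30 DPA, against 99.2, 48.3, 84 and 39.99 CPM at 5 DPA (log2 fold change -6.14 ± 0.59, edgeR adjusted p = 8.74e-08), Serpinb2, an inhibitor of plasminogen activators (log2 fold change -7.49 ± 0.85, edgeR adjusted p = 7.72e-07), Marco, a scavenger receptor (log2 fold change -5.90 ± 1.15, edgeR adjusted p = 0.000662), and Chil3, a chitinase-like protein of macrophages (log2 fold change -5.88 ± 0.71, edgeR adjusted p = 1.84e-06). Alox15, a lipoxygenase of mouse peritoneal macrophages that was picked after its values were seen, had 2.71, 2.56, 1.69 and 4.73 CPM at 30 DPA, against 65.6, 61.6, 320.2 and 86.8 CPM at 5 DPA (log2 fold change -5.51 ± 0.56, edgeR adjusted p = 1.92e-07). S100g, a calcium-binding protein of the gut, was listed among them (log2 fold change -7.85 ± 2.57, edgeR adjusted p = 0.0246) with 0, 1.73, 0 and 0 CPM at 30 DPA, against 131, 59, 0 and 228 CPM at 5 DPA, and its 3 high libraries were those at 5 DPA that held enterocyte markers. It lost its call in 4 of the 8 fits that left out a library.

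The largest rises rested mostly on single libraries. Of the 12 genes with the largest rises, 6 were immunoglobulin variable segments, which are near-identical copies whose reads cannot be assigned with certainty. Another such segment, Igkv2-109, was among the 12 largest falls (log2 fold change -5.97 ± 1.28, edgeR adjusted p = 0.00145). It had 34.3, 2.62, 4.33 and 1.6 CPM at 30 DPA, against 963, 47, 7.57 and 1681 CPM at 5 DPA. Igkv3-9 had 223, 11.3, 29.2 and 2.19 CPM at 30 DPA, against 0.263, 0, 0 and 1.07 CPM at 5 DPA (log2 fold change 7.51 ± 1.52, edgeR adjusted p = 0.000891), with most of its level in replicate 1 at 30 DPA. A further 4 of the 12 largest rises were sympathetic neuron genes, and Kcnc4, a potassium channel, was also among these 12. Dbh, which makes noradrenaline, had 1.68, 858, 2.71 and 2.11 CPM at 30 DPA, against 0.263, 1.91, 11 and 2.38 CPM at 5 DPA. The fitted rise (log2 fold change 5.82 ± 1.63, edgeR adjusted p = 0.00928) rests on that one library, and without it Dbh had a log2 fold change of -0.83. Th (log2 fold change 4.06 ± 0.72, edgeR adjusted p = 0.00025), Slc6a2 (log2 fold change 5.78 ± 1.57, edgeR adjusted p = 0.0077) and Slc18a2 (log2 fold change 4.14 ± 0.93, edgeR adjusted p = 0.00197) were highest in that same library, as was Kcnc4 (log2 fold change 3.17 ± 0.65, edgeR adjusted p = 0.000934). Without it Slc6a2 (-0.76) and Slc18a2 (0.34) were not called. Th and Kcnc4 kept their calls in all 8 fits that left out a library, with lowest log2 fold changes of 2.11 and 1.32. Their groups did not overlap. The 12 sympathetic neuron genes summed to 4060 CPM in 30 DPA replicate 2, against 344 to 535 CPM in the other 30 DPA libraries and 127 to 330 CPM at 5 DPA. Of the 12, 10 were called higher with that library and 2 without it (median 0.21), and in a fit of the 8 compared libraries alone 2 were called. Ddc, which beta cells also express, had 214, 472, 265 and 317 CPM at 30 DPA, against 61.5, 150.2, 119.5 and 132 CPM at 5 DPA (log2 fold change 1.45 ± 0.33, edgeR adjusted p = 0.00232).

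**Figure D4:**
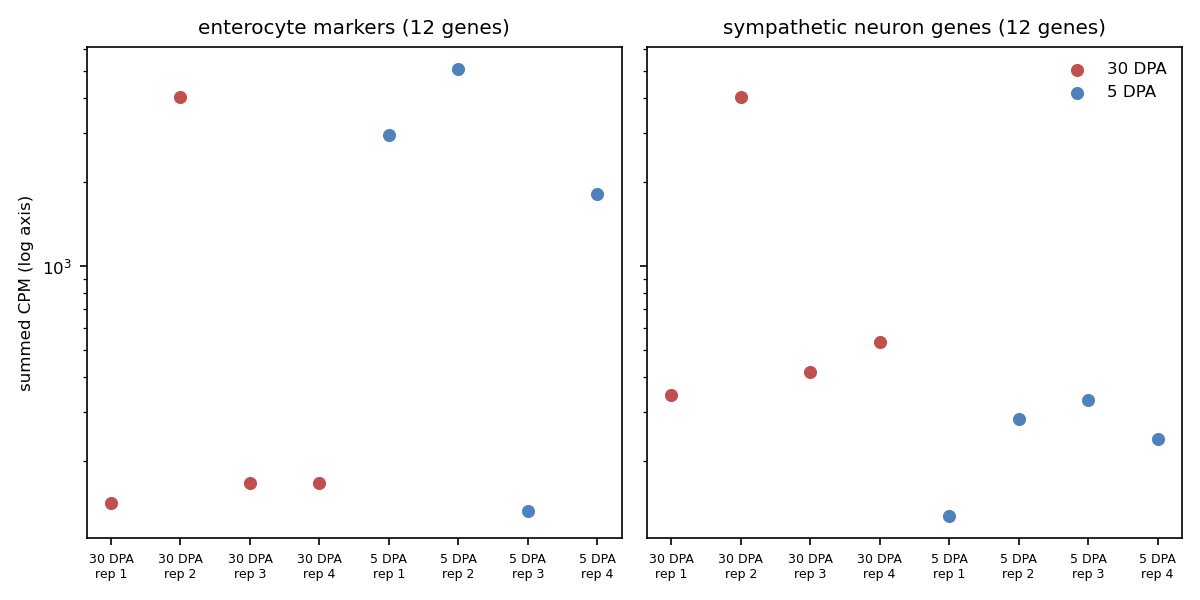
Summed CPM of 12 enterocyte markers and of 12 sympathetic neuron genes in each library, on a log axis, with 30 DPA replicates 1 to 4 on the left and 5 DPA replicates 1 to 4 on the right. Replicate 2 at 30 DPA is the highest of its group for both, and 5 DPA replicates 1, 2 and 4 are high for enterocyte markers.

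Immediate early genes, which cells switch on within minutes of a stimulus, were called lower for 16 of 24 members and higher for none (median -1.19). Egr1 had 23.7, 22.8, 26.3 and 29.1 CPM at 30 DPA, against 120.4, 278, 446 and 102 CPM at 5 DPA (log2 fold change -3.22 ± 0.42, edgeR adjusted p = 4.62e-06). Klf6 (log2 fold change -1.07 ± 0.15, edgeR adjusted p = 1.3e-05), Junb (log2 fold change -1.65 ± 0.24, edgeR adjusted p = 2.57e-05) and Atf3 (log2 fold change -2.45 ± 0.37, edgeR adjusted p = 2.84e-05) fell, and the list had 15 calls without the libraries with enterocyte RNA. The heat shock chaperones were divided: Hspa1a (log2 fold change -1.68 ± 0.36, edgeR adjusted p = 0.00123) and Hspa1b (log2 fold change -1.40 ± 0.43, edgeR adjusted p = 0.0167), near-identical copies that share reads, fell, Hspa4l rose (log2 fold change 0.77 ± 0.24, edgeR adjusted p = 0.0165), and the other 14 of 17 did not pass. Of these 17 chaperones 5.9% were called higher and 11.8% lower, against 16.5% and 13.9% of all genes tested. Hspa4l was not called without 30 DPA replicate 2 (0.45), nor Hspa1b without 5 DPA replicate 1 (-1.17), and each lost the call in 2 of the 8 such fits. Of 21 redox and iron genes 9 were called lower and none higher (median -0.68). With an enterocyte score as covariate 8 were lower and 3 higher (median -0.19). Gpx1, a peroxide-removing enzyme, had 93.2, 65, 100.4 and 76.2 CPM at 30 DPA, against 274, 264, 274 and 216 CPM at 5 DPA (log2 fold change -1.62 ± 0.20, edgeR adjusted p = 1.77e-06). Hmox1, which breaks down haem, had 10.4, 5.11, 9.21 and 8.01 CPM at 30 DPA, against 292, 117, 64.9 and 88.5 CPM at 5 DPA (log2 fold change -4.10 ± 0.50, edgeR adjusted p = 2.35e-06), and Ftl1, the ferritin light chain (log2 fold change -1.05 ± 0.15, edgeR adjusted p = 1.85e-05), and G6pdx, which supplies NADPH (log2 fold change -1.27 ± 0.23, edgeR adjusted p = 0.000233), fell.

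Of 16 circadian genes 7 (43.8%) were called lower and 2 (12.5%) higher, with a median of -0.26. Of all genes tested 13.9% were called lower and 16.5% higher. Ciart, a repressor of the clock, had 0.839, 0.958, 0.271 and 1.24 CPM at 30 DPA, against 16.5, 20.8, 56.6 and 15.8 CPM at 5 DPA. The gap between the groups was 32.9-fold, the widest of the list (log2 fold change -5.04 ± 0.53, edgeR adjusted p = 2.83e-07). Nr1d1, which encodes REV-ERB alpha (log2 fold change -1.73 ± 0.37, edgeR adjusted p = 0.00138), Hlf (log2 fold change -1.35 ± 0.36, edgeR adjusted p = 0.00728) and Dbp (log2 fold change -1.06 ± 0.36, edgeR adjusted p = 0.0283) were also lower, while Clock (log2 fold change 0.61 ± 0.17, edgeR adjusted p = 0.0094) and Per2 (log2 fold change 0.71 ± 0.27, edgeR adjusted p = 0.0498) were higher. Dbp lost its call in 4 and Per2 in 6 of the 8 fits that left out a library. With the libraries with enterocyte RNA left out, the median was -0.71 for the clock genes and -0.44 for the redox and iron genes. That setting keeps replicate 3 as the single 5 DPA library. The clock genes summed to 948 CPM in that replicate, against 441 to 614 CPM in the other 5 DPA libraries. Without 5 DPA replicate 3, 3 clock genes were called lower and 3 higher, with a median of -0.09. The labels do not give the hour at which islets were taken.

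Levels in untreated islets and at 10 weeks are given for orientation. The interferon score, the mean log2 CPM of the list, was 4.13 to 4.90 in CTRL, 5.84 to 6.29 at 5 DPA, 3.60 to 4.37 at 30 DPA and 3.50 to 4.78 in DT SD 10WPA. Macrophage scores were 4.36 to 5.22, 7.00 to 7.50, 3.72 to 5.01 and 3.06 to 4.45 in the same order. The 5 DPA libraries were above all others on both, and the 30 DPA and 10-week libraries overlapped. Fibroblast and matrix scores were 5.06 to 5.77, 6.93 to 7.34, 5.27 to 5.60 and 4.45 to 5.32, and Reg scores 2.14 to 4.42, 5.80 to 6.48, 2.10 to 3.03 and 2.27 to 2.88. Mitosis scores were 1.91 to 3.71, 3.82 to 4.42, 1.49 to 3.08 and 0.84 to 2.55. For some other lists that fell, the CTRL and 5 DPA libraries overlapped. Class I scores were 6.29 to 7.84 in CTRL and 7.44 to 8.39 at 5 DPA, and class II scores 5.54 to 7.50 and 7.06 to 8.05. Replication scores were 3.05 to 4.38 in CTRL and 4.29 to 4.67 at 5 DPA, and cell death scores 3.70 to 5.10 and 4.97 to 5.69. Beta cell scores were 6.82 to 8.70 in CTRL, 6.41 to 8.01 at 5 DPA, 8.29 to 9.43 at 30 DPA and 8.91 to 9.11 in DT SD 10WPA. The CTRL libraries overlapped both the 5 DPA and the 30 DPA libraries on this list, and CTRL replicate 2 held enterocyte markers at 7023 CPM. No test was made on these levels.

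**Figure D5:**
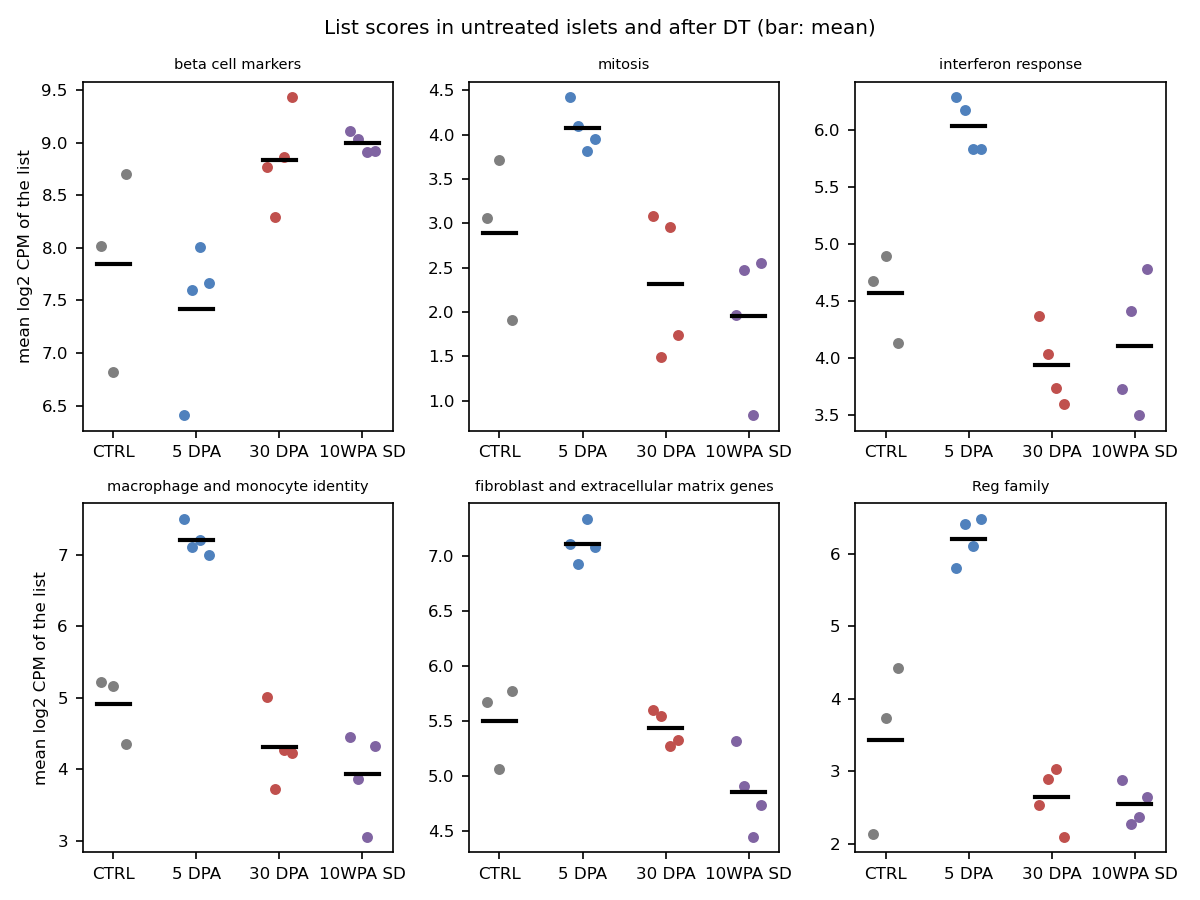
Mean log2 CPM of the members of 6 lists in each library of untreated islets (CTRL), DT islets at 5 DPA, at 30 DPA and on SD at 10 weeks (DT SD 10WPA); points are libraries and bars are group means. Interferon, macrophage, fibroblast and Reg scores are highest at 5 DPA; mitosis scores at 5 DPA lie above every other library shown, and beta cell scores at 30 DPA lie above every 5 DPA library.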

How the data were processed

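Bulk RNA-seq counts of reads per gene were used as deposited by the authors (48709 genes, 34 libraries, per the file headers). Extraction used the Qiagen RNeasy Mini kit and library preparation a QIAseq stranded mRNA kit, per the labels' protocols; per the submitters' processing notes the build was mm10. Aligner, counter, strand setting and annotation: not given in the sources used here. Thus genes that overlap on opposite strands and near-identical copies remain uncertain. Library totals, 12066780 to 15742834 counts in the 8 compared libraries, limit the precision of low genes.

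The comparison was fitted with edgeR 4.0.16 (limma 3.58.1, R 4.3.3) by the quasi-likelihood test over the 33 libraries whose labels give a group, with TMM scaling, filterByExpr (minimum count 10, total 15) and Benjamini-Hochberg adjustment over 17616 genes. The contrast was DT 30 DPA over DT 5 DPA. Levels are CPM on TMM-scaled library sizes, and log2 scores use a prior count of 2. Genes were named by rule: 10 fixed genes, the 12 strongest rises and the 12 strongest falls (called, mean log2 CPM 1 or more), the 4 members of each list with the smallest adjusted p, and further list members whatever their result; not all were printed. The members and lists were chosen with earlier results of these data known. Alternatives, with DESeq2 1.42.0 for size factors and its Wald test, are in the closing section. On simulated data of 17616 genes, 200 of them changed, 40.2% of genes changed 2-fold and 74.3% of genes changed 4-fold were recovered. Of the 123 calls 3.25% were false. The simulation drew each gene independently, with no RNA of other cells shared within a library, and the data had 5371 calls. These rates therefore need not hold for the comparison itself. Promoter windows are from RefSeq (GRCm38.p6), matched by symbol for 12595 tested genes. One library whose labels conflict, and the other groups' comparisons, were not analysed here. No pair of libraries agreed within sampling noise (lowest chi-square per degree of freedom 43.76).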

Additional observations from a re-analysis of the deposited data

Results flagged for a closer look

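Within the 4 libraries of a group, the library farthest from the rest was set against the spread of the group, on the scale log2(CPM + 1) for 205 named genes and on list scores for 11 lists. Chance marks about 1 in 20 groups, and 25 of 432 groups (5.79%) were marked, so single marks carry little weight.

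Replicate 2 at 30 DPA stood apart for sympathetic neuron genes, with a mean log2 CPM of 7.97 against 3.43 to 3.93 in the other 30 DPA libraries. Its level was 858 CPM for Dbh, 689 CPM for Slc6a2, 317 CPM for Slc18a2 and 35.6 CPM for Kcnc4, where the other 3 libraries had at most 2.71, 2.91, 8.66 and 3.79 CPM. The same library stood apart for the glycolysis score (6.70, others 5.60 to 5.73) and for Cox5a (41.3 CPM), Cox5b (96.2 CPM), Hspa4l (109 CPM) and S100g (1.72 CPM, others 0).

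Replicate 1 at 5 DPA was far below its group for the beta cell genes Glp1r (8.53 CPM, others 27.6 to 30.3), Mafa (24.2 CPM, others 66.4 to 75.3) and Pdx1 (21.6 CPM, others 48.4 to 53.4). It was far above for Ppy (1208 CPM, others 5.60 to 13.3), Nlrp3 (20.9 CPM) and Ftl1 (2570 CPM). At 30 DPA, replicate 1 stood apart for Acod1 (1.74 CPM) and Rrm2b (48.4 CPM), and replicate 3 for Gcg (40900 CPM, others 29980 to 31610) and Gpr119 (16.9 CPM). At 5 DPA, replicate 2 stood apart for Eng (83.2 CPM) and Mmp9 (11.5 CPM), replicate 3 for Exo1 (3.15 CPM), and replicate 4 for Gpx1 (216 CPM) and Oasl2 (80.05 CPM).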

How the results depend on the processing

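With all libraries and TMM scaling 5371 genes were called, 54.3% of them higher at 30 DPA. Counts stayed within 1.5 times of this with DESeq2 size factors (5314, 49.6% higher), without a low-count filter (4612), with a stricter filter (5399), with hormone genes left out before scaling (5272), with the DESeq2 Wald test (5935), in the 8 compared libraries alone (5133, 44.1% higher), with an acinar score (5103) or an enterocyte score (4810) as covariate, and, in an alternative chosen after seeing the data, without 30 DPA replicate 2 and 5 DPA replicate 3 (4632). Same-numbered libraries correlated at 0.198, 0.365, 0.058 and -0.123, and libraries of unlike number at -0.301 to 0.381. The labels do not say what a replicate number marks, and so few values cannot show whether it marks a pair or a batch. The replicate block gave 5105 calls. In the 8 compared libraries alone the block gave 4393, of which 1837 were higher, against 2266 higher without the block. Without the libraries with enterocyte RNA 912 genes were called, 117 higher and 795 lower, and 798 of the 912 were also called with all libraries. With each library left out in turn, 3525 to 5442 genes were called, 1789 to 3043 higher and 1736 to 2590 lower; the lowest total came without 5 DPA replicate 1. Of 195 named genes that were called, 156 were called in all 8 of these fits and 39 were not. Without the libraries with enterocyte RNA the direction turned for Actg2 (1.15), Cd3e (1.59), Dbh (-2.35), Nkg7 (0.24), Npy (-0.68), Ngfr (-1.10), Slc18a2 (-0.29), Slc6a2 (-2.31) and Vgf (-0.35), and S100g had 0 counts in every remaining library of the comparison, with a fitted change of 0. Without 30 DPA replicate 2 it turned for Dbh, Slc6a2 and Ngfr, and without both libraries far from their group for Ngfr (-0.43). With each library left out in turn these ranged from -0.83 to 7.14 (Dbh), -0.76 to 7.21 (Slc6a2) and -0.63 to 2.27 (Ngfr). The cause was not tested. Genes at a few CPM rest on few reads at these depths.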

Other observations

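Among duct markers Krt7, a keratin of duct cells, had 111, 96.5, 124 and 162 CPM at 30 DPA, against 32, 64.9, 72.5 and 57.9 CPM at 5 DPA (log2 fold change 1.12 ± 0.27, edgeR adjusted p = 0.00313). Of the 10 duct markers tested, 2 (20%) were called higher at 30 DPA, against 16.5% of all genes tested. None of them was called by edgeR once the libraries with enterocyte RNA were left out (2 at an unadjusted p below 0.05). Ngfr, a neurotrophin receptor that sympathetic neurons also carry, was the sole call among 9 Schwann cell markers (log2 fold change 1.90 ± 0.67, edgeR adjusted p = 0.033), or 11.1% against 16.5% of all genes tested. It had 14.2, 301, 21.1 and 9.98 CPM in the 30 DPA libraries, with the highest value in replicate 2, and lost its call in 4 of the 8 fits that left out a library. None of the 5 red blood cell genes and none of the 6 adipocyte markers tested passed by edgeR, at an unadjusted p below 0.05 or by DESeq2.

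Drd2, a dopamine receptor that was too low over the series to be tested, had 2, 278, 12 and 1 counts in the 30 DPA libraries, against 0, 0, 0 and 1 counts in the 5 DPA libraries.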
